A study of Mus musculus with 27 samples.

Results

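The enzymes that write and erase acetyl and methyl marks on histone tails, and the bromodomain proteins that bind acetylated histones, were followed in bone marrow-derived macrophages (BMDMs) given bacterial lipopolysaccharide (LPS) or the cytokine interleukin-4 (IL-4). The members were chosen by name and by measured values. Protein-coding genes were taken whose symbol begins with Kdm, Kmt, Setd, Hdac, Kat, Sirt, Ezh, Ehmt, Nsd or Brd and a digit, or is Crebbp, Ep300 or Dot1l, and a normalized read count of 10 or more was required in 3 or more of the 27 samples. Of 79 genes with such a name, 72 reached this level, among 13901 genes that did so out of 45070 in the table. The 72 genes are 23 lysine methyltransferases, 17 lysine demethylases, 10 acetyltransferases, 10 zinc-dependent deacetylases, 5 sirtuins and 7 bromodomain readers, grouped by name.

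Every sample was wild type BMDMs, primary macrophages grown in culture from the bone marrow of young adult male C57/BL6 mice, and every sample, the untreated ones included, had first spent 1 h in medium with DMSO, which served as solvent for kinase inhibitors in other experiments of the study. Cells were then left untreated or given LPS or IL-4 at 10 ng/ml for 0.5, 1, 2 or 4 h, which makes 9 groups of 3 replicates. RNA bound to chromatin was sequenced, a fraction rich in transcripts that are still being made, so the values follow ongoing transcription of a gene more closely than its stock of mature mRNA, and they do not measure protein or histone marks. Whether replicates were separate cultures or animals was not stated, and p-values then measure only the spread between these samples.

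Acetyltransferases and methyltransferases write marks, deacetylases and demethylases remove them, and readers such as the bromodomain proteins bring other factors to marked chromatin. In macrophages these proteins are known as cofactors of the transcription factors that LPS and IL-4 activate. LPS acts through TLR4 and drives NF-κB, AP-1 and interferon regulatory factors, whereas IL-4 acts through STAT6. Several histone-modifying enzymes are themselves targets of these pathways, with Kdm6b, a demethylase of H3K27, the best known.

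The values are read counts per gene that the authors scaled on a set of invariant genes, and their sums over all genes ran from 2469768 to 2790981 without stimulus or with IL-4 and from 3571492 to 4058199 with LPS. The number of reads behind them is unknown. All 8 macrophage markers were detected, and their summed values were 10027 to 11141 in untreated, 11122 to 19679 in LPS and 10976 to 14044 in IL-4 samples. Single markers moved both ways under LPS. The mean of Adgre1 went from 4245 untreated to 9452 at 1 h, and that of Csf1r from 1971 to 456 at 2 h. Markers of other cell types were low, with sums of at most 28 for 5 neutrophil markers, 34 for 4 T cell markers, 7 for 4 B cell markers, 3 for 4 mast cell and basophil markers, 119 for 4 dendritic cell markers and 208 for 4 fibroblast and stromal markers. Ly6g, Cd3e and Cd3g were listed at 0 in all samples. In these bulk samples, fewer cells of a type and less RNA per cell cannot be told apart. Replicate 1 stood apart by its low cell cycle markers, which matters for Ezh2 below.

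Low values limited few of the members. Of the 72, 60 reached 10 in all 27 samples, 71 would have been chosen on the untreated and IL-4 samples alone, and 69 on the LPS samples alone. Just inside the limit were Setd6, with 3 samples at 10 or more and a highest value of 12, Sirt4, with 6 samples and a highest value of 14, and Kdm8, with 11 samples and a highest value of 17. Just outside were Kdm4d, with 2 samples and a highest value of 12, and Hdac11, with 1 sample and a highest value of 11. Setd4, Sirt6 and Sirt7 were listed at 0 in all 27 samples, and Brd3os and Brd8dc, which match by name only and are not readers, were low. Sirt4 and Kdm8 reached 10 in untreated and IL-4 samples only, so the choice itself favored their falls under LPS, which are counted below. The counts below describe the members that reached the limit and are no support for a statement on the family.

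Annotated gene spans of the members ran from 3095 to 869514 bases with a median of 44727, against 21523 for all tested genes. Of the 72 members, 8 share bases with a neighbor read in the same direction and 28 with one read in the opposite direction. Since it was not stated whether counting used strand, reads of overlapping genes could be shared. Among the genes described below this concerns Kat14 with Pet117, Sirt3 with Ric8a, Nsd2 with Nelfa, Kmt2e with Srpk2, Kat8 with Prss8, Kdm5a with Ccdc77, Hdac7 with Slc48a1, Setd6 with Cnot1 and Brd8 with Kif20a, a kinesin of dividing cells. It also concerns Brd1, Brd3, Brd9, Ep300, Hdac4, Hdac5, Hdac8, Hdac9, Hdac10, Kat2b, Kat6a, Kdm2a, Kdm2b, Kdm4a, Kdm4b, Kdm6b, Kdm7a, Kmt2a, Kmt5b, Nsd3, Setd7, Sirt2 and Sirt4, which overlap small RNAs or little studied loci. Of the 38 members that overlap no other gene, 35 changed during the LPS course and 15 during that of IL-4.

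Most members changed under LPS, and more fell than rose. Over the LPS course, 64 of 72 members (88.9%) passed a moderated F test at an adjusted p under 0.05, against 87.6% of all tested genes, so the share was close to the background. The change of largest size was a rise in 17 and a fall in 47. With replicate 1 left out, 68 passed, without replicate 2 52 and without replicate 3 55. All tested genes moved in the same way, from 12174 of 13901 passing with all samples. Without replicate 1, 12504 passed, without replicate 2 10191 (73.3%) and without replicate 3 10057 (72.3%). Kdm6b had the largest rise, 50.4-fold, and Hdac5 the largest fall, 48.7-fold, among members with a mean of at least 50 in the higher group. The size of the largest change had a median of 1.40 on the log2 scale, against 1.73 for all tested genes. Members had higher values than most tested genes, with a median of 179 against 42, which makes changes easier to call. Among genes with a mean of at least 50, 53 of 61 members passed over the LPS course, against 95.3% of 6827 genes.

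Per time point the counts leaned towards lower values as they did for all genes. At 0.5 h of LPS, 10 members were higher and 33 lower than untreated (background 19.6% and 34.4% of tested genes). At 1 h, 16 were higher and 36 lower (background 24.8% and 39.0%). At 2 h, 20 were higher and 32 lower (background 26.9% and 39.0%). At 4 h, 14 were higher and 33 lower (background 25.9% and 37.6%). The members' median log2 change was -0.40, -0.40, -0.44 and -0.46 at the 4 times, and that of all tested genes was -0.24, -0.30, -0.29 and -0.26.

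How many members count as higher depended on the scaling, because LPS samples sum to more than the others. When the values were rescaled by median-of-ratios factors, the median gene moved by -0.01 to -0.06 in place of -0.24 to -0.30, and the LPS calls were, in order of time, 15 higher with 23 lower, 22 with 30, 22 with 26, and 19 with 26. When all samples were scaled to equal totals, the median gene moved by -0.73 to -0.91, and the calls were 5 with 52, 9 with 52, 12 with 51, and 9 with 55. The shares of all tested genes per time were not counted under these scalings. Several members whose sign turned are named where they are described.

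IL-4 moved fewer members and by less. Over the IL-4 course 33 of 72 members (45.8%) passed the F test, against 40.3% of all tested genes, with 15 rises and 18 falls as their largest changes. Taken with its sign, the largest change had a median of -0.19, against -0.16 for all tested genes. The size of the largest change had a median of 0.37 on the log2 scale, against 0.57 for all tested genes. Among genes with a mean of at least 50, 32 of 61 members passed over the IL-4 course, against 58.4% of 6827 genes. The count of 33 rested on the replicates used, since it was 42 without replicate 1, 9 without replicate 2 and 9 without replicate 3. The share of all tested genes moved in the same way, to 47.1%, 16.1% and 15.6%.

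At 0.5 h of IL-4, 4 members were higher and 13 lower (background 8.15% and 8.14%), and with equal totals these were 3 and 24. At 1 h, 8 were higher and 9 lower (background 11.1% and 9.83%), or 6 and 15 with equal totals. At 2 h, 11 were higher and 4 lower (background 14.3% and 13.2%), and at 4 h 10 were higher and 8 lower (background 13.4% and 12.5%). The early falls at 0.5 h included Setd1b, Hdac5, Sirt1, Setd7 and Ep300, and the later rises at 2 h included Kat14, Kdm4c and Kdm4b.

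**Figure D1:**
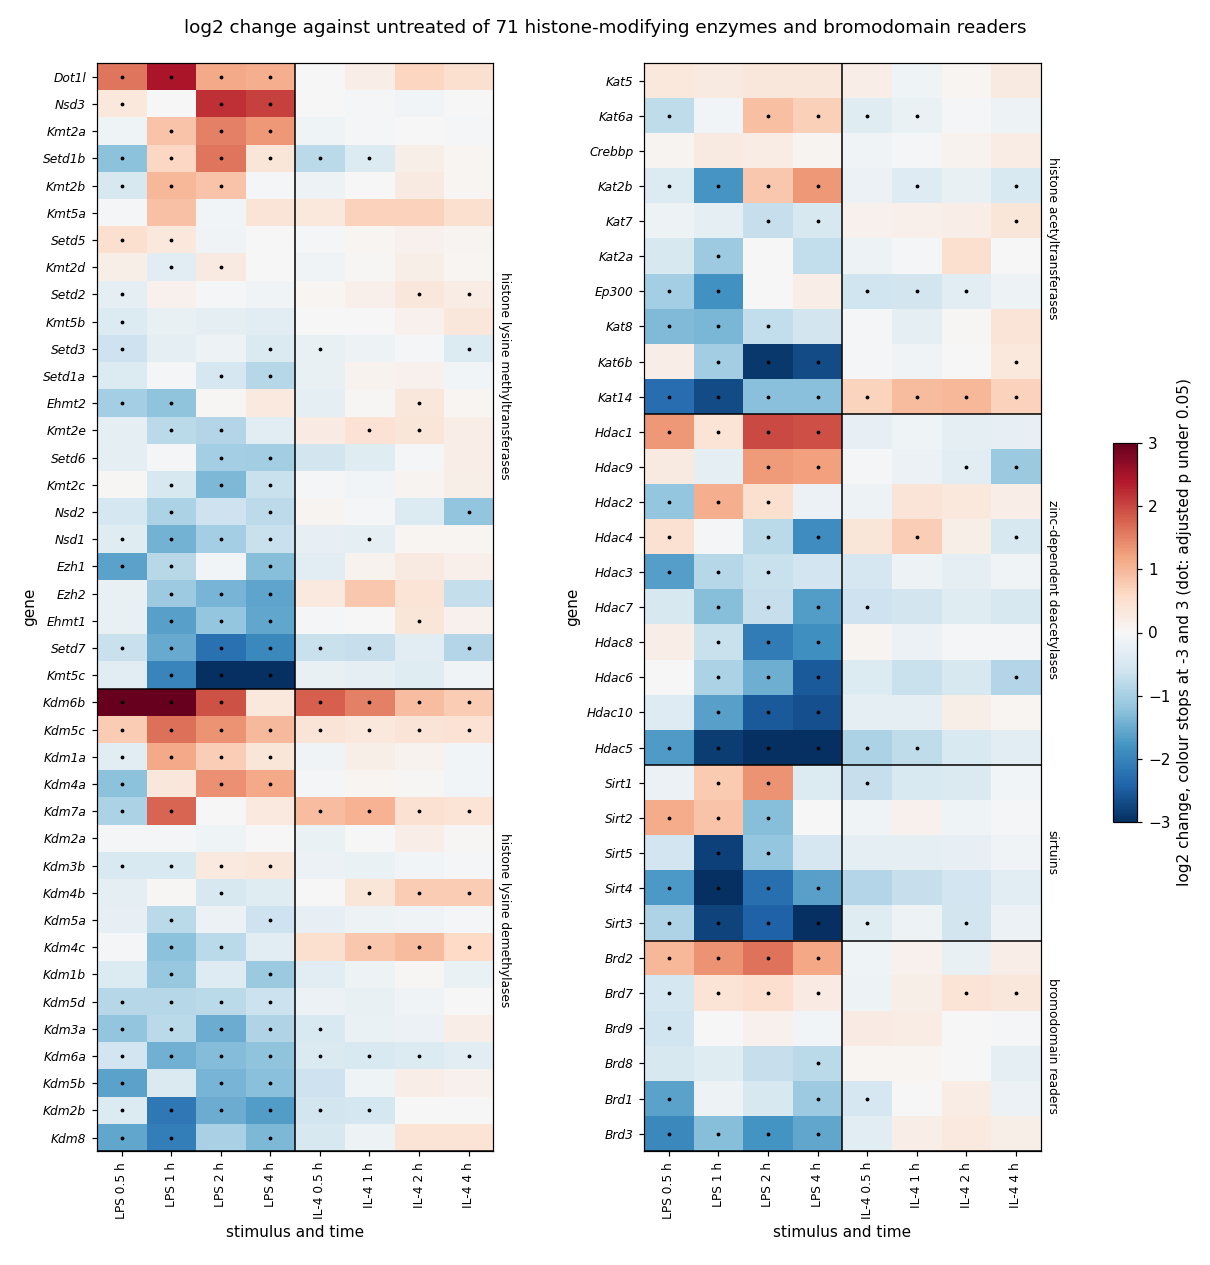
Log2 change against untreated of 71 of the 72 members, 1 row per gene, with the 4 LPS and 4 IL-4 times as columns and genes grouped by class and ordered within a class by their mean change under LPS. Red is higher, blue is lower, colors stop at -3 and 3, and a dot marks an adjusted p under 0.05; Kdm6b passes the upper limit at 0.5 and 1 h of LPS, and Hdac5 and Kmt5c at 2 and 4 h, Sirt3 at 4 h and Sirt4 at 1 h pass the lower one.

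The counts by class that follow have a background of 87.6% of all tested genes for LPS and 40.3% for IL-4. Among the demethylases, 15 of 17 passed over the LPS course, 5 with a rise and 10 with a fall, and 9 of 17 over the IL-4 course, 6 with a rise and 3 with a fall. The LPS falls include Kdm8, which was chosen through untreated and IL-4 samples only. Kdm6b (chr11:69398508-69416194, GRCm38) encodes JMJD3, which removes methyl groups from H3K27, the mark set by Ezh1 and Ezh2. It read 24, 20 and 25 in the untreated replicates 1, 2 and 3 and 1468, 1145 and 1035 after 0.5 h of LPS. All 3 stimulated samples were far above the untreated ones. The log2 change was 5.65 (95% confidence interval 4.96 to 6.34, adjusted p = 1.59e-09). Kdm6b then went down, to 949, 751 and 831 after 1 h, 117, 70 and 85 after 2 h, and finally 50, 33 and 14 after 4 h, when the replicates overlapped untreated and the change of 0.31 no longer passed.

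Kdm6b was also the member with the largest rise under IL-4. It read 72, 78 and 96 at 0.5 h, 67, 68 and 68 after 1 h, 46, 39 and 48 after 2 h, then 30, 41 and 51 after 4 h, with no overlap with untreated at any of these times. The change at 0.5 h was 3.45-fold, or 1.79 on the log2 scale (interval 1.40 to 2.18, adjusted p = 1.12e-05). Compared directly, LPS exceeded IL-4 by 14.6-fold at 0.5 h (adjusted p = 6.5e-11) and 12.2-fold at 1 h (adjusted p = 1.13e-10), and at 4 h the difference of -0.46 did not pass. The bursts under both stimuli were highest at the earliest time measured.

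Kdm6a (chrX:18162575-18279936), the paralog of Kdm6b and also an H3K27 demethylase, fell where Kdm6b rose. It read 931, 1011 and 984 in untreated samples, 288, 417 and 376 at 1 h of LPS and 389, 419 and 458 at 4 h. The fall was 2.73-fold at 1 h (log2 change -1.45, interval -1.77 to -1.13, adjusted p = 7.48e-07). Under IL-4 it read 666, 694 and 782 at 1 h, a fall of 1.37-fold (adjusted p = 0.00874) that did not pass when replicate 2 or replicate 3 was left out. The 3 samples of each stimulated group were below all untreated samples at 1 h.

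Kdm7a (chr6:39136620-39206773), a demethylase with activity on H3K9 and H3K27, went in opposite directions at 0.5 h. Untreated samples read 522, 449 and 459. LPS samples read 261, 245 and 234 at 0.5 h and then 1561, 1541 and 1668 at 1 h, so that the gene went from 1.93-fold below untreated (adjusted p = 2.96e-05) to 3.34-fold above it (adjusted p = 2.8e-08) between these times. IL-4 samples read 943, 888 and 891 at 0.5 h and 942, 1004 and 1003 at 1 h. The direct difference at 0.5 h was 3.67-fold (log2 of LPS minus IL-4 -1.88, interval -2.11 to -1.64, adjusted p = 1.68e-12), and no sample of one stimulus overlapped those of the other.

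Kdm5c (chrX:152233227-152279102), which removes methyl groups from H3K4, rose under both stimuli at all 4 times. It read 226, 190 and 201 untreated, 723, 621 and 615 at 1 h of LPS, and 268, 300 and 266 at 4 h of IL-4. The rise was 3.16-fold at 1 h of LPS (adjusted p = 6.35e-09) and 1.35-fold at 4 h of IL-4 (adjusted p = 0.00248). Its relatives Kdm5a and Kdm5b fell, Kdm5a by 0.82 on the log2 scale at 1 h and Kdm5b by 1.60 at 0.5 h of LPS, and Kdm5d on the Y chromosome was lower at all 4 LPS times, by 0.65 to 0.85.

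Kdm1a, or LSD1, which acts on H3K4 through a flavin, read 235, 240 and 239 untreated and 538, 537 and 507 at 1 h of LPS, a rise of 2.21-fold (adjusted p = 3.78e-07) after a small fall at 0.5 h. Its rise at 4 h (0.36) turned to -0.25 with equal totals. The family of Kdm4 enzymes, which act on H3K9 and H3K36, split by member and stimulus. Kdm4a read 136, 150 and 167 untreated, 49, 67 and 77 at 0.5 h and 342, 434 and 406 at 2 h of LPS, a fall of 2.36-fold followed by a rise of 2.59-fold.

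Kdm4c (chr4:74242497-74405864) read 841, 867 and 882 untreated, 291, 412 and 413 at 1 h of LPS and 1208, 1726 and 1690 at 1 h of IL-4. LPS samples were all below and IL-4 samples all above the untreated ones. The LPS fall was 2.35-fold (adjusted p = 1.54e-05), the IL-4 rise 1.76-fold (adjusted p = 0.002) and the direct difference 4.14-fold (adjusted p = 5.85e-10). Replicate 1 was the lowest of the 3 in all 9 groups, and whether this bears on the size of the changes was not tested.

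Kdm4b (chr17:56326050-56403774) read 147, 140 and 168 untreated and 272, 258 and 248 at 2 h of IL-4, a rise of 1.71-fold (adjusted p = 0.000219). Over the LPS course it did not pass the F test, and only the contrast at 2 h did (log2 change -0.48, adjusted p = 0.034, with 81, 129 and 121). At 2 h LPS and IL-4 differed by 2.38-fold (adjusted p = 3.17e-07). Kdm2a, which acts on H3K36, also passed over the IL-4 course without passing over the LPS course, with 810, 718 and 729 at 2 h of IL-4 against 705, 637 and 606 untreated, although no single IL-4 time passed for it.

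The other demethylases moved mostly down under LPS. Kdm2b, which binds unmethylated CpG islands, read 316, 328 and 306 untreated and 74, 73 and 66 at 1 h of LPS, a fall of 4.42-fold (adjusted p = 8.3e-10), and at 1 h of IL-4 it read 231, 216 and 210. Kdm3a fell at all 4 LPS times, by 0.81 to 1.49 on the log2 scale. Kdm3b fell at 0.5 and 1 h and was higher at 2 and 4 h, but its later values of 0.30 and 0.35 became -0.36 and -0.26 with equal totals.

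**Figure D2:**
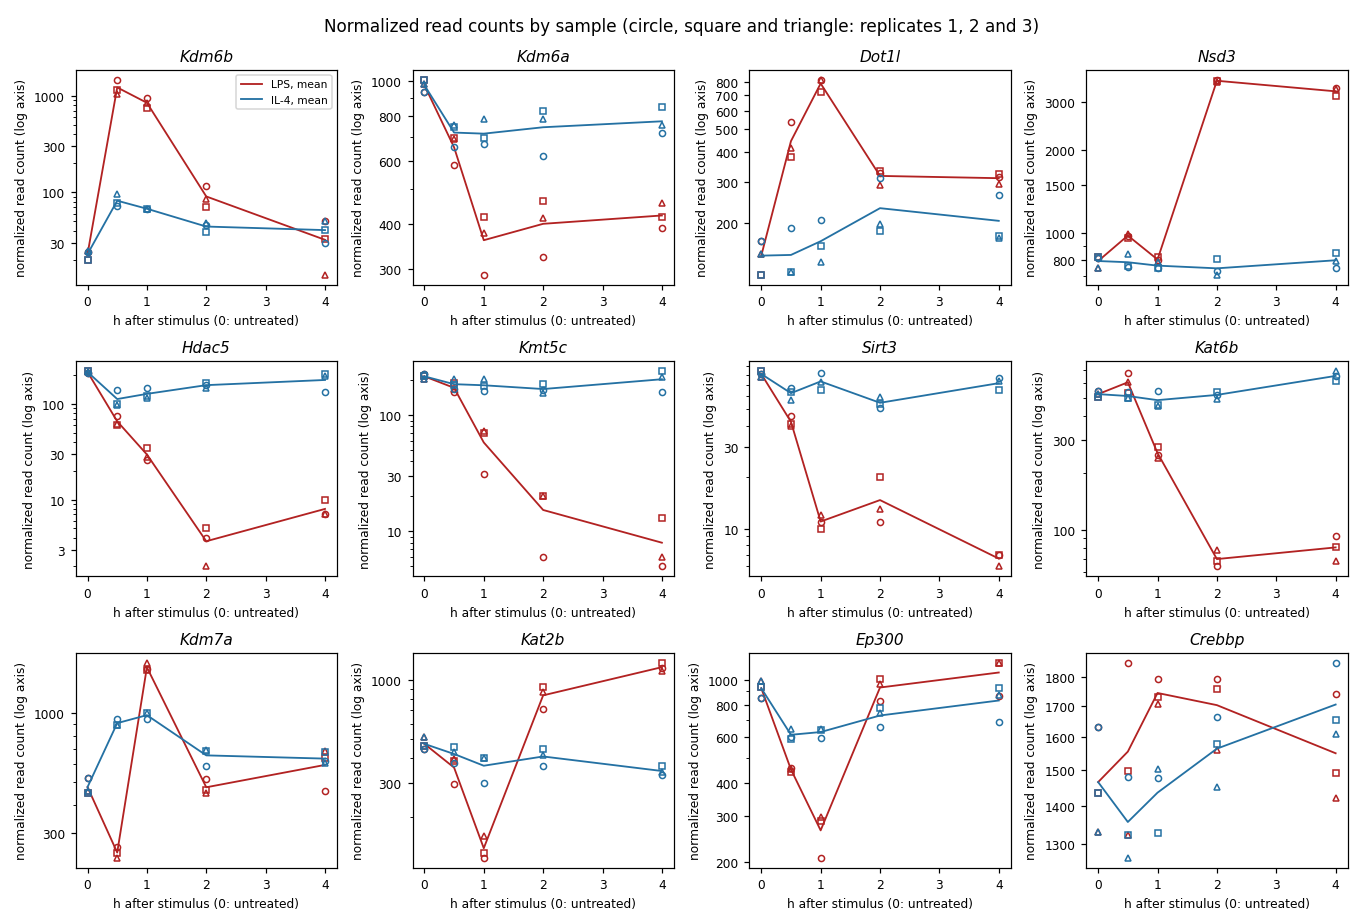
Normalized read counts (log axis) against hours after stimulus for 12 members, with the untreated samples at 0, LPS in red, IL-4 in blue, 1 symbol per sample and a line through the group means. Kdm6b peaks at 0.5 h of LPS, Nsd3 steps up between 1 and 2 h, Hdac5, Kmt5c, Sirt3 and Kat6b fall to low values, and Crebbp stays between 1264 and 1852.

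Of the methyltransferases, 21 of 23 passed over the LPS course, 6 with a rise and 15 with a fall, and 11 passed over the IL-4 course, 5 with a rise and 6 with a fall. Dot1l (chr10:80755203-80795461), the enzyme of H3K79 methylation, which marks transcribed gene bodies, read 168, 120 and 148 untreated, 540, 381 and 417 at 0.5 h and 816, 724 and 816 at 1 h of LPS. At 2 and 4 h it was lower again, at 290 to 334, but still above every untreated sample. The rise at 1 h was 5.42-fold (log2 change 2.44, interval 2.13 to 2.75, adjusted p = 1.43e-09). Under IL-4 the highest group was 2 h, with 310, 185 and 198, and the course did not pass (adjusted p = 0.132). The rise at 2 h of IL-4 passed without replicate 1.

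Nsd3 (chr8:25601601-25719667), an H3K36 methyltransferase, rose late and in a step. It read 813, 820 and 744 untreated, 802, 818 and 785 at 1 h of LPS, then 3618, 3572 and 3554 at 2 h and 3361, 3143 and 3329 at 4 h. The replicates within each group lay close together. The rise at 2 h was 4.52-fold (log2 change 2.18, interval 2.00 to 2.35, adjusted p = 5.53e-12), while the change at 1 h was 0.02. IL-4 samples stayed between 705 and 845, and the direct difference at 2 h was 4.81-fold (adjusted p = 7.53e-18). The small rise of 0.31 at 0.5 h turned to -0.20 with equal totals.

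The relatives of Nsd3 went down. Nsd1 read 964, 888 and 849 untreated and 339, 333 and 344 at 1 h of LPS, a fall of 2.65-fold (adjusted p = 6.82e-09), and it was lower at all 4 LPS times. Nsd2 (chr5:33843112-33897966) had the largest passing fall of the members under IL-4, from 213, 371 and 402 untreated to 145, 137 and 136 at 4 h (log2 change -1.18, interval -1.75 to -0.61, adjusted p = 0.00445). Its untreated replicate 1 was far below the other two, as the cell cycle markers were in that sample, and the fall did not pass when replicate 2 or replicate 3 was left out. Their part in this result was not tested.

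Among enzymes of H3K4 methylation, Kmt2a (chr9:44803355-44881289), or MLL1, read 652, 630 and 619 untreated, 1284, 1170 and 1002 at 1 h and 2005, 1898 and 1581 at 2 h of LPS, a rise of 2.87-fold at 2 h (adjusted p = 2.86e-07). Its IL-4 samples lay between 560 and 673 and the IL-4 course did not pass (adjusted p = 0.54). Kmt2b rose 1.99-fold at 1 h after a fall at 0.5 h. Kmt2c, which acts mainly at enhancers, instead read 1519, 1451 and 1484 untreated and 599, 598 and 560 at 2 h of LPS, a fall of 2.53-fold (adjusted p = 5.36e-09). Kmt2d, its close relative, changed by -0.33 at 1 h and 0.28 at 2 h, and the latter became -0.37 with equal totals.

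Setd1b (chr5:123142193-123168630), a further H3K4 methyltransferase, first fell and then rose under LPS. It read 185, 173 and 181 untreated, 75, 86 and 66 at 0.5 h, 305, 257 and 268 after 1 h, 658, 555 and 458 after 2 h, then 232, 261 and 209 after 4 h. The fall at 0.5 h was 2.37-fold (adjusted p = 4.7e-06) and the rise at 2 h 3.06-fold (adjusted p = 1.2e-07). The rise of 0.37 at 4 h became -0.23 with equal totals. IL-4 samples were also low at 0.5 h, with 112, 95 and 97 (1.77-fold, adjusted p = 0.000131), and at 1 h, with 123, 140 and 144, where LPS and IL-4 lay on opposite sides of untreated and differed by 2.03-fold (adjusted p = 5.85e-07).

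Setd7 (chr3:51515318-51560823), which methylates H3K4 and many other proteins, fell under both stimuli. It read 142, 161 and 165 untreated, 33, 30 and 33 at 2 h of LPS and 65, 100 and 91 at 4 h of IL-4. The falls were 4.75-fold (adjusted p = 2.69e-08) and 1.84-fold (adjusted p = 0.000388), and no stimulated sample of these groups reached an untreated one. At 0.5 h the change was nearly equal under the stimuli (-0.67 and -0.66) and their difference was -0.01, which did not pass.

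Kmt5c (chr7:4740127-4747514), which adds methyl groups to H4K20 in heterochromatin, fell steadily under LPS. It read 226, 218 and 204 untreated, 159, 189 and 168 at 0.5 h, 31, 71 and 73 after 1 h, 6, 20 and 20 after 2 h, then 5, 13 and 6 after 4 h. The change at 4 h was -4.69 on the log2 scale (interval -5.59 to -3.80, adjusted p = 9.28e-08), or 25.9-fold. Under IL-4 its samples lay between 154 and 240 and the course did not pass (adjusted p = 0.242). Kmt5b, which sets the same mark, did not pass over either course, and its LPS samples lay between 182 and 287 against 263 to 330 untreated.

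The H3K9 methyltransferases Ehmt1 and Ehmt2, which work as a complex, both fell early. Ehmt1 read 717, 634 and 634 untreated and 220, 195 and 227 at 1 h of LPS, a fall of 3.08-fold (adjusted p = 6.1e-08), and remained low at 4 h with 248, 244 and 188. Ehmt2 read 127, 135 and 135 untreated and 56, 63 and 53 at 1 h, but was back at 179, 175 and 135 at 4 h, where it did not pass. At 2 h of IL-4 both were slightly higher than untreated, by 0.36 and 0.34 on the log2 scale.

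Ezh1 and Ezh2 are the alternative catalytic subunits of Polycomb repressive complex 2, which methylates H3K27. Ezh1 (chr11:101191115-101226463) read 191, 169 and 166 untreated and 58, 53 and 59 at 0.5 h of LPS, a fall of 3.06-fold (adjusted p = 1.49e-06). It was back near untreated at 2 h, with 124, 184 and 200, and low again at 4 h, with 70, 76 and 69. Its IL-4 course passed too, with a fall at 0.5 h as its largest change (log2 change -0.31). The samples read 150, 142 and 132 there, but this contrast did not pass on its own. At 2 h of IL-4 it read 205, 232 and 201. At 4 h the stimuli differed by 2.69-fold (adjusted p = 1.31e-08).

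Ezh2 (chr6:47530274-47595030) read 119 in untreated replicate 1 but 457 and 486 in replicates 2 and 3. The 8 cell cycle markers summed to 193, 1393 and 1348 in the same samples, and Mki67, a marker of proliferating cells, read 72, 490 and 429. At 4 h of LPS, Ezh2 read 83, 111 and 105, and the cell cycle markers summed to 207, 285 and 290. The fall at 4 h was 2.99-fold (log2 change -1.58, interval -2.55 to -0.61, adjusted p = 0.00667). It did not pass when replicate 2 or replicate 3 was left out. Under IL-4 Ezh2 read 218, 759 and 860 after 1 h but 94, 254 and 252 after 4 h. The IL-4 course did not pass (adjusted p = 0.504), and neither did the rise at 1 h (log2 change 0.81, adjusted p = 0.529), although the sample at 1 h was above the untreated sample of the same number in all 3 cases. Without replicate 1 this rise was 0.78 and passed (adjusted p = 5.67e-05). The part of the cell cycle markers in these values was not tested.

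**Figure D3:**
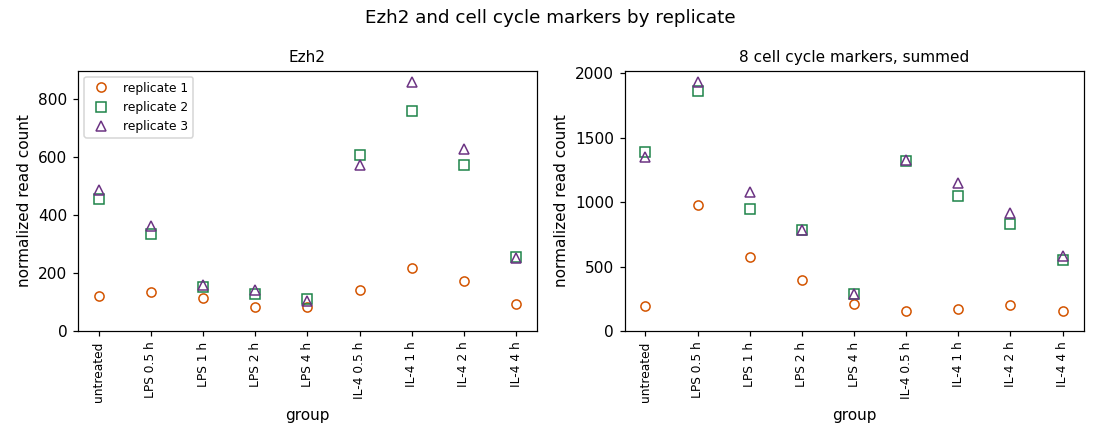
Normalized read counts of Ezh2 (left) and of the 8 cell cycle markers summed (right) in every sample, with the 9 groups along the horizontal axis and a symbol and color for each replicate number. Replicate 1 lies lowest in each of the 9 groups on both sides, with Ezh2 at 119 against 457 and 486 in untreated samples.

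Of the acetyltransferases, 8 of 10 passed over the LPS course, 1 with a rise and 7 with a fall, and 5 passed over the IL-4 course, 2 with a rise and 3 with a fall. Ep300 and Crebbp are close relatives that acetylate H3K27 at enhancers and promoters, and they behaved differently. Ep300 (chr15:81586214-81652077) read 849, 939 and 990 untreated, 457, 443 and 455 at 0.5 h and 207, 288 and 296 at 1 h of LPS, and was back at 831, 1001 and 963 at 2 h. The fall at 1 h was 3.54-fold (log2 change -1.82, interval -2.14 to -1.51, adjusted p = 4.69e-08). Under IL-4 it was also lower at 0.5 h, with 601, 593 and 649 (1.5-fold, adjusted p = 0.00156), a call that was lost when replicate 2 or replicate 3 was left out.

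Crebbp (chr16:4084048-4213404) passed over neither course (adjusted p = 0.299 for LPS and 0.0782 for IL-4), although its IL-4 rise at 4 h passed without replicate 1. It read 1634, 1436 and 1329 untreated and 1795, 1732 and 1708 at 1 h of LPS, a change of 0.26 (interval -0.02 to 0.53) that did not pass (adjusted p = 0.094). It passed with median-of-ratios scaling (0.52, adjusted p = 0.0114) and without replicate 1 (0.32, adjusted p = 0.00697), and with equal totals it passed as a fall (-0.33, adjusted p = 0.0317). Its samples overlapped those of untreated at all other LPS times. The data thus leave room for changes of Crebbp of the size of these intervals but show none of the size seen for Ep300 at 1 h.

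Kat2b (chr17:53566971-53672721), or PCAF, a transcriptional coactivator, fell first and ended above untreated under LPS. It read 447, 461 and 511 untreated, 124, 132 and 160 at 1 h of LPS, 712, 926 and 869 at 2 h and 1152, 1229 and 1111 at 4 h. It was thus 3.41-fold lower at 1 h (adjusted p = 3.47e-08) and 2.46-fold higher at 4 h (adjusted p = 8.04e-07). Under IL-4 at 4 h it read 330, 363 and 339, a fall of 1.37-fold (adjusted p = 0.0114), and the stimuli differed by 3.38-fold (adjusted p = 4.21e-11).

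Kat6a and Kat6b, the paralogs MOZ and MORF, also diverged. Kat6a read 1062, 982 and 990 untreated, 543, 657 and 593 at 0.5 h and 1906, 1909 and 1887 at 2 h of LPS, a fall of 1.70-fold followed by a rise of 1.88-fold (adjusted p = 5.23e-07). Kat6b (chr14:21499770-21672478) read 544, 503 and 523 untreated, 249, 275 and 240 after 1 h, 64, 68 and 78 after 2 h, then 93, 81 and 68 after 4 h of LPS. Its fall at 2 h was 7.41-fold (log2 change -2.89, interval -3.18 to -2.60, adjusted p = 6.08e-11). At 4 h of IL-4 it was slightly higher, with 651, 615 and 693, and the stimuli differed by 8.06-fold (adjusted p = 8.47e-17).

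Kat14 (chr2:144369032-144407675), a subunit of the ATAC acetyltransferase complex, had opposite changes under LPS and IL-4 at all 4 times. It read 85, 94 and 91 untreated, 18, 17 and 18 at 0.5 h and 17, 9 and 15 at 1 h of LPS, and 158, 137 and 137 at 0.5 h and 182, 178 and 169 at 1 h of IL-4. All LPS samples were below and all IL-4 samples above the untreated ones. At 1 h the fall was 6.39-fold (adjusted p = 4.81e-08), the rise 1.95-fold (adjusted p = 2.96e-06) and the direct difference 12.5-fold (log2 of LPS minus IL-4 -3.64, interval -3.97 to -3.31, adjusted p = 2.78e-15). Pet117 lies on the same strand within its span, so that its reads could count towards Kat14.

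The remaining acetyltransferases moved little or went down. Kat8, or MOF, read 33, 30 and 37 untreated and 12, 13 and 12 at 1 h of LPS. Kat7, or HBO1, was lower at 2 and 4 h of LPS, by 0.68 and 0.49 on the log2 scale, and higher at 4 h of IL-4 by 0.36. Kat5, or TIP60, stayed between 38 and 80 in all samples and passed over neither course.

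All 10 zinc-dependent deacetylases passed over the LPS course (background 87.6%), 2 with a rise and 8 with a fall, and 3 passed over the IL-4 course, 1 with a rise and 2 with a fall. Hdac1, Hdac2 and Hdac3 are the class I enzymes of the large nuclear corepressor complexes. Hdac1 (chr4:129516104-129542646) read 71, 76 and 61 untreated, 190, 160 and 171 at 0.5 h, 76, 114 and 92 after 1 h, 267, 245 and 310 after 2 h, then 248, 270 and 279 after 4 h of LPS. It went up, back towards untreated and up again. The rise was 3.91-fold at 2 h (log2 change 1.97, interval 1.63 to 2.30, adjusted p = 2.3e-08), and the small rise of 0.42 at 1 h became -0.16 with equal totals. IL-4 samples read 48 to 79 and the course did not pass (adjusted p = 0.674).

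Hdac2, the paralog of Hdac1 and its partner in the same complexes, differed from it at the first times. It read 39, 35 and 31 untreated, 12, 14 and 20 at 0.5 h, when Hdac1 was up, and 79, 71 and 74 at 1 h of LPS, when Hdac1 was near untreated. The changes were a fall of 2.24-fold (adjusted p = 0.000178) and a rise of 2.11-fold (adjusted p = 0.000257). At 2 h, when Hdac1 was up again, Hdac2 read 55, 50 and 44, a change of 0.49 (adjusted p = 0.0417) that became -0.15 with equal totals. Hdac3, the deacetylase of the NCoR and SMRT corepressors, read 37, 63 and 56 untreated and 18, 12 and 17 at 0.5 h of LPS, a fall of 3.15-fold (adjusted p = 6.04e-05). At 2 h it read 23, 40 and 35, still lower by the test (log2 change -0.66, adjusted p = 0.033) although a sample overlapped the untreated ones. The IL-4 course of Hdac3 did not pass (adjusted p = 0.255), but its fall at 0.5 h of IL-4 passed without replicate 1 and with equal totals.

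The class IIa deacetylases, Hdac4, Hdac5, Hdac7 and Hdac9, have weak enzymatic activity of their own and repress MEF2 factors in the nucleus. Hdac5 (chr11:102195747-102230172) had the largest fall of the members with a mean of at least 50 in the higher group. It read 212, 222 and 218 untreated, 76, 60 and 62 at 0.5 h, 26, 35 and 28 after 1 h, 4, 5 and 2 after 2 h, then 7, 10 and 7 after 4 h of LPS. The change at 2 h was -5.61 on the log2 scale (interval -6.15 to -5.06, adjusted p = 4.2e-11). Under IL-4 it was lower at 0.5 h, with 141, 100 and 97 (1.95-fold, adjusted p = 0.00109), but this call was lost when replicate 2 or replicate 3 was left out, and at 4 h it read 134, 207 and 195.

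Hdac4 (chr1:91928779-92180341) fell later than Hdac5. It read 639, 628 and 650 untreated, 957, 799 and 891 at 0.5 h, 461, 318 and 331 after 2 h, then 217, 159 and 155 after 4 h of LPS, a fall of 3.64-fold at 4 h (adjusted p = 4.39e-08). The early rise of 0.46 became -0.05 with equal totals. Under IL-4 it was higher at 1 h, with 1272, 986 and 944 (1.65-fold, adjusted p = 0.00354), and lower at 4 h, with 554, 392 and 452 (1.38-fold, adjusted p = 0.0379). It was the only member with passing contrasts in both directions within the IL-4 course.

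Hdac9 (chr12:34047582-34917095) was the class IIa enzyme that rose under LPS. It read 2224, 2327 and 2528 untreated, 5325, 5203 and 6696 at 2 h and 5873, 5331 and 5378 at 4 h of LPS, and 1214, 1020 and 1024 at 4 h of IL-4. LPS samples lay above and IL-4 samples below all untreated samples at 4 h. The rise at 4 h was 2.34-fold (adjusted p = 7.96e-07), the fall 2.18-fold (adjusted p = 8.43e-06) and the direct difference 5.10-fold (log2 of LPS minus IL-4 2.35, interval 2.08 to 2.62, adjusted p = 7.73e-14). Its span of 869514 bases is the longest of the members and holds 6 other annotated loci, whose reads could count towards it.

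RefSeq promoter windows (GRCm38.p6, 250 bases before to 50 after the start) were at hand for 55 of the 72 members, in 78 windows. Kdm6b was among those without a window. CpG pairs numbered 26.5 per window in the median (0 to 65) against 7 over the 32851 windows of all genes. Those windows were not limited to tested or protein-coding genes, as the members were, so shares of all windows come from an unlike set. The windows were searched on both strands for GGG followed after any 2 bases by TTTCC, a sequence of the NF-κB type, and for TTC followed after any 4 bases by GAA, which STAT6 can bind and which reads the same on both strands. The first stood in 1.63% of all windows and in 1 member window (1.28%), and the second in 6.95% of all windows and in 1 member window (1.28%). The 2 member matches lie at deacetylases just described and are shown with 10 bases on each side, 5′ to 3′ along the gene's own strand, with the motif in capitals. The bases shown are chr12:34917293-34917322 (minus strand) for Hdac9 and chr1:92180415-92180444 (minus strand) for Hdac4, and the motif in capitals begins at position -217 and -93 from the respective start site.
Hdac9: atgtctatgaGGGCATTTCCagaaagctga
Hdac4: tgacgctttcTTCATTAGAAaccaggcagg
These are matches of letters only and say nothing of whether a factor binds there.

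Of the other zinc-dependent deacetylases, Hdac8 read 613, 666 and 604 untreated, 117, 144 and 182 at 2 h and 177, 166 and 185 at 4 h of LPS, a fall of 4.29-fold at 2 h (adjusted p = 2.86e-09), while its IL-4 samples stayed between 515 and 697. Hdac7 read 98, 77 and 85 untreated and 39, 20 and 23 at 4 h of LPS, a fall of 3.21-fold (adjusted p = 7.31e-06). Hdac6, which deacetylates tubulin in the cytoplasm, and Hdac10, which acts on polyamines, also fell, Hdac6 from 30, 40 and 49 to 4, 5 and 10 and Hdac10 from 23, 36 and 33 to 4 in each sample at 4 h.

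All 5 sirtuins, NAD-dependent deacylases, passed over the LPS course (background 87.6%), 1 with a rise and 4 with a fall, and 2 passed with a fall over the IL-4 course. Among the LPS falls is Sirt4, which was chosen through untreated and IL-4 samples only. Sirt1 (chr10:63319005-63339035), a nuclear enzyme that deacetylates histones and p65 of NF-κB, read 101, 110 and 113 untreated, 210, 183 and 168 at 1 h, 367, 240 and 241 after 2 h, then 93, 73 and 80 after 4 h of LPS. The rise at 2 h was 2.55-fold (log2 change 1.35, interval 0.94 to 1.76, adjusted p = 1.51e-05), and by 4 h it was gone. Under IL-4 it read 47, 86 and 73 at 0.5 h, a fall of 1.61-fold (adjusted p = 0.0187) that did not pass when replicate 2 or replicate 3 was left out.

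Sirt2, mainly a cytoplasmic enzyme, was high early and low later. It read 127, 101 and 93 untreated, 311, 191 and 205 at 0.5 h and 54, 38 and 40 at 2 h of LPS, a rise of 2.16-fold (adjusted p = 0.000231) followed by a fall of 2.41-fold (adjusted p = 4.09e-05). At 4 h, with 108, 104 and 106, it was back among the untreated values.

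Sirt3, Sirt4 and Sirt5 are sirtuins of mitochondria, where they do not act on histones, and they fell. Sirt3 (chr7:140863663-140882309) read 81, 84 and 77 untreated, 46, 41 and 40 at 0.5 h, 11, 10 and 12 after 1 h, 11, 20 and 13 after 2 h, then 7, 7 and 6 after 4 h of LPS. The change at 4 h was -3.41 on the log2 scale (interval -3.91 to -2.92, adjusted p = 3.57e-09), or 10.7-fold. Under IL-4 it read 51, 54 and 59 at 2 h, a fall of 1.47-fold (adjusted p = 0.00263). Sirt5 read 15, 18 and 19 untreated and 1, 2 and 2 at 1 h of LPS, and Sirt4 read 11, 12 and 13 untreated and 0, 0 and 2, which are near the lower limit of these values.

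Of the bromodomain readers, 5 of 7 passed over the LPS course, 2 with a rise and 3 with a fall, and 3 passed over the IL-4 course, 1 with a rise and 2 with a fall. Brd2 and Brd3 are paralogs that bind acetylated histones through paired bromodomains. Brd2 (chr17:34112019-34122607) read 105, 150 and 128 untreated, 272, 246 and 246 at 0.5 h, 303, 325 and 344 after 1 h, 392, 408 and 370 after 2 h, then 303, 285 and 265 after 4 h of LPS. Every LPS sample was above every untreated one. The rise at 2 h was 3.07-fold (log2 change 1.62, interval 1.34 to 1.89, adjusted p = 2.33e-08).

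Brd3 (chr2:27445581-27475673) went the other way from Brd2. It read 111, 107 and 107 untreated, 23, 36 and 25 at 0.5 h and 26, 38 and 29 at 2 h of LPS, a fall of 3.84-fold at 0.5 h (log2 change -1.94, interval -2.42 to -1.46, adjusted p = 3.55e-06), and was lower at all 4 times.

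Under IL-4 no contrast of Brd2 or Brd3 passed at a single time. Brd2 samples lay between 93 and 158 and Brd3 samples between 66 and 143, and of these IL-4 courses that of Brd3 passed (adjusted p = 0.02). The fall of Brd3 at 0.5 h of IL-4 passed without replicate 1 and with equal totals. At 2 h the stimuli differed by 3.60-fold for Brd2, higher under LPS (adjusted p = 2.62e-12), and by 4.23-fold for Brd3, lower under LPS (adjusted p = 1.45e-09).

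Of the other readers, Brd1, a scaffold of acetyltransferase complexes, read 393, 353 and 357 untreated and 152, 80 and 141 at 0.5 h of LPS, a fall of 3.05-fold (adjusted p = 3.54e-05). Brd7, a subunit of the PBAF remodeling complex, was the reader that rose over the IL-4 course, from 165, 169 and 175 to 221, 245 and 219 at 2 h (1.34-fold, adjusted p = 0.00392). Under LPS it fell to 124, 117 and 110 at 0.5 h, and its later rises of 0.25 to 0.50 became -0.16 to -0.36 with equal totals. The courses of Brd8 and Brd9 did not pass under either stimulus, and in both replicate 1 was the lowest of the 3 in all 9 groups.

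**Figure D4:**
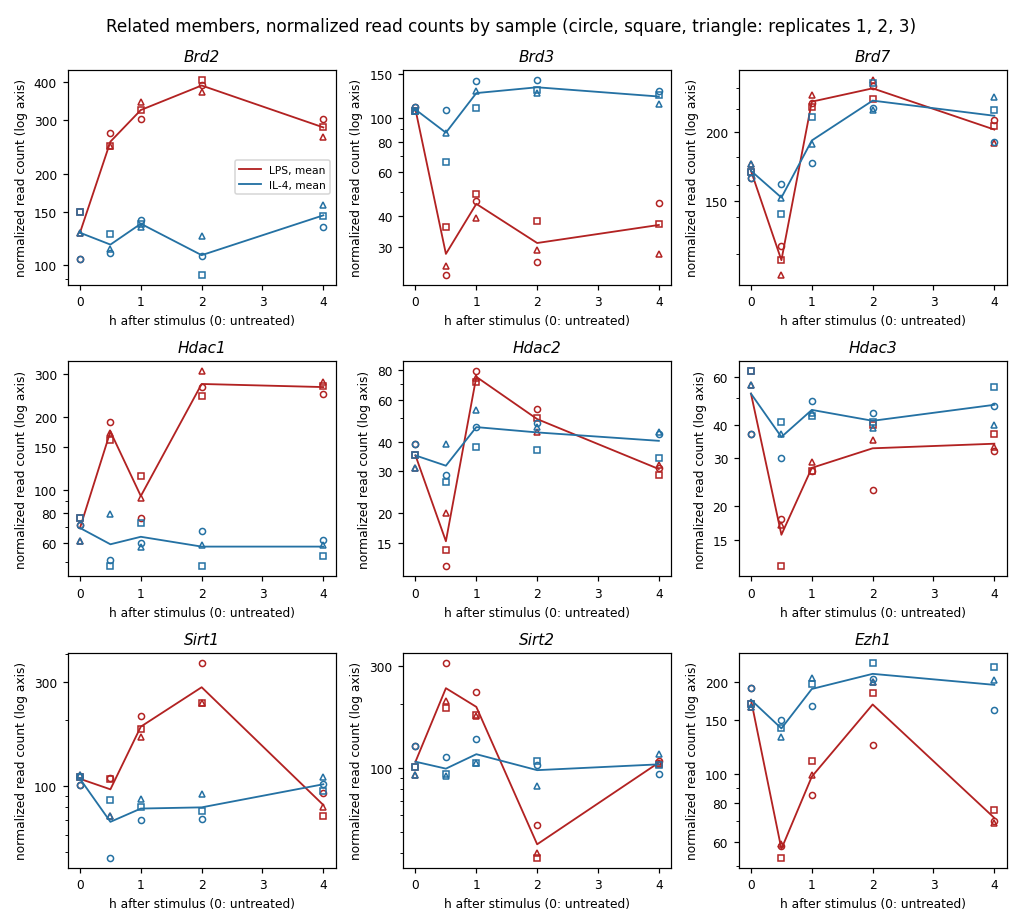
Normalized read counts (log axis) against hours after stimulus for related members, in rows the readers Brd2, Brd3 and Brd7, the class I deacetylases, and Sirt1, Sirt2 and Ezh1, with the untreated samples at 0, LPS in red, IL-4 in blue, 1 symbol per sample and a line through the group means. Brd3 lies below its untreated values in every LPS group while Brd2 lies above, and Hdac2 is lowest at 0.5 h, when Hdac1 is at 160 to 190.

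The times of the largest changes are given as counts, with no test between rises and falls. They were not counted over all tested genes, so they show nothing particular to the members. Of the 17 LPS rises, 2 had their largest change at 0.5 h (Kdm6b and Setd5), and in order of time the later counts were 6, 9 and 0. Of the 47 falls the counts in order of time were 11, 18, 9 and 9. Setd5 owed its place to changes of 0.49 and 0.32, which became -0.02 and -0.27 with equal totals. Of the 15 IL-4 rises, 1 peaked at 0.5 h (Kdm6b), and the later counts were 3, 8 and 3. Of the 18 falls the counts were 10, 2, 1 and 5.

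In 13 members (18.1%) LPS contrasts passed in both directions at different times, against 13.0% of all tested genes. In 11 of them (15.3%), against 7.69% of all tested genes, the fall came before the rise. These are Brd7, Hdac2, Kat2b, Kat6a, Kdm1a, Kdm3b, Kdm4a, Kdm7a, Kmt2b, Kmt2d and Setd1b, and the 2 in which the rise came first are Hdac4 and Sirt2. The contrasts of a course share the 3 untreated samples. With median-of-ratios scaling the counts were 13 and 9 (13.8% and 7.36% of all tested genes), and with equal totals 14 and 12 (11.2% and 7.30%). The members counted differ with the scaling. With equal totals the rises of Brd7, Kdm3b, Kmt2d and Hdac4 turned negative at the times where they had passed. The extremes ranged from -1.77 and 1.30 for Kat2b to -0.33 and 0.28 for Kmt2d.

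LPS and IL-4 were then compared directly, which asks at which members the stimuli differ. The contrast takes only LPS and IL-4 samples, while the untreated ones enter the estimate of the spread. At 0.5 h, 11 members were higher and 28 lower under LPS than under IL-4 (background 18.0% and 35.8%). At 1 h, 17 were higher and 37 lower (background 24.0% and 40.5%), at 2 h 18 and 38 (background 26.4% and 42.3%), and at 4 h 14 and 36 (background 26.1% and 41.9%). With median-of-ratios scaling these were 19 and 14, 21 and 28, 22 and 28, and 18 and 30, so that at 0.5 h more were higher than lower. With equal totals they were 5 and 48, 10 and 52, 11 and 55, and 8 and 57. The shares of all tested genes were not counted under these scalings. The direct difference of the median gene was 0.00 to -0.09 with median-of-ratios scaling and -0.60 to -0.96 with equal totals. Small direct differences changed sign with equal totals, as for Ep300 at 2 and 4 h (0.35 at both times, then -0.28 and -0.27) and Dot1l at 2 h (0.49, then -0.14).

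In 11 members (15.3%), against 13.8% of all tested genes, the LPS and IL-4 contrasts, which share the untreated samples, passed in opposite directions at the same time and the direct contrast passed too. Kat14 did so at all 4 times, Hdac9 at 2 and 4 h, Kdm4c and Kmt2e at 1 and 2 h, Kdm7a at 0.5 h, Setd1b at 1 h, Ehmt1 and Kdm4b at 2 h, and Kat2b, Kat6b and Kat7 at 4 h. LPS was the lower one in most of these, and the higher one for Hdac9, Kat2b and Setd1b. These are the calls with all samples, and their IL-4 part depends on the replicates. Without replicate 2, 4 members were higher and 0 lower at 2 h of IL-4. The fall of Hdac9 at that time was thus lost. With 2 members higher at 4 h of IL-4, not all of the IL-4 rises listed here remained. Kmt2e, a relative of the trithorax methyltransferases, read 1105, 1091 and 1129 untreated, 510, 693 and 727 at 1 h of LPS and 1383, 1509 and 1629 at 1 h of IL-4, and the stimuli differed by 2.36-fold (adjusted p = 1.68e-08).

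**Figure D5:**
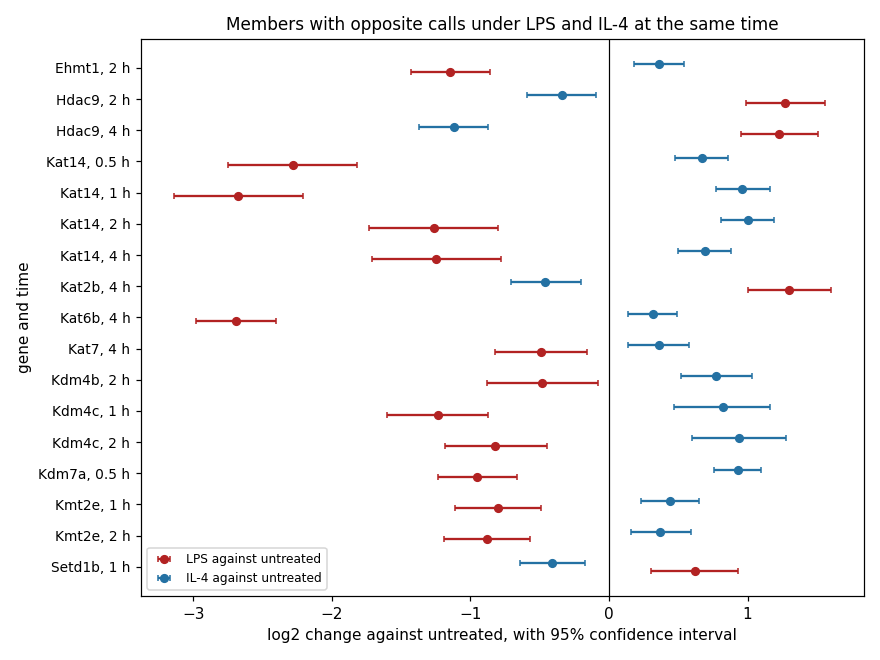
Log2 change against untreated, with 95% confidence intervals, of the 11 members whose LPS (red) and IL-4 (blue) contrasts passed in opposite directions at the same time, 1 row per gene and time. Kat14 has the widest separation, with -2.68 under LPS and 0.96 under IL-4 at 1 h. The calls are those with all samples, and some of the IL-4 calls are lost when a replicate is left out.

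A list of other chromatin regulators, the partner subunits of these enzymes and further writers, erasers and readers outside the name rule, gave 75 tested genes. Of these, 70 (93.3%, background 87.6%) passed over the LPS course, 17 with a rise and 53 with a fall, and 45 (60.0%, background 40.3%) over the IL-4 course, 18 with a rise and 27 with a fall. Jarid2, a subunit of Polycomb repressive complex 2, rose 5.77-fold at 1 h of LPS (adjusted p = 1.32e-09). Setdb2, an H3K9 methyltransferase, rose 22.2-fold at 2 h of LPS (adjusted p = 1.2e-10) after a fall at 0.5 h. Smarca2, an ATPase of the BAF remodeling complex, fell 24.5-fold at 4 h of LPS (adjusted p = 5.15e-11), and Jmjd1c, a relative of the H3K9 demethylases Kdm3a and Kdm3b, rose 2.66-fold at 1 h of IL-4 (adjusted p = 4.15e-06).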

How the data were processed

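Chromatin-associated RNA of 27 BMDM samples was measured. Per the labels and the study's methods, the authors prepared libraries by Smart-seq2 with random primers, aligned single-end reads to mm10 with TopHat2 2.1.1, used samtools and bedtools 2.29.2 to drop reads with several hits or in blacklisted regions, counted reads per gene of the RefSeq annotation GRCm38.p6 in R and scaled libraries on invariant genes. DESeq2 and R 3.6.2 are also listed in the submitters' processing notes. The deposited values are these normalized read counts rounded to whole numbers, treated here as a score and not as raw counts, so no count model was used and depth is unknown.

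The test was limma 3.58.1 with a trend (R 4.3.3) on log2(value + 1), with Benjamini-Hochberg adjustment over all 13901 genes with at least 10 in 3 samples and a threshold of 0.05. Each course used its untreated and 12 stimulated samples, with an F test over the 4 times and a contrast per time. Direct LPS against IL-4 contrasts came from a fit of all 27 samples. Fold changes are on this scale and understate the change of low genes. The impulse model of the study was not run. The script was tested on simulated data.

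Members and lists were chosen with earlier results of these data known. Named were 14 fixed members, the 6 largest rises and falls per stimulus that passed the F test without replicate overlap at the peak and with a mean of at least 50, and up to 6 members with opposite calls. 1 of the members, counted with the rest, is not reported here. Other members named in the text were chosen after their values were seen. Alternatives were a pseudocount of 8, no filter or a mean of at least 50, median-of-ratios scaling, equal totals, a replicate block, replicates 2 and 3 averaged, and leaving out each replicate number. Coordinates are those of the table (GRCm38, counted from 1).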

Additional observations from a re-analysis of the deposited data

Results flagged for a closer look

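The values here are log2 differences of LPS minus IL-4 at 1 time, from limma with adjustment over all tested genes, for members whose response to the stimuli differed in that direct test. Unless a p is given, the adjusted p was at most 6.69e-05.

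Among the demethylases, Kdm6b differed by 3.87 at 0.5 h, Kdm5c by 1.35 at 1 h, Kdm7a by -1.88 at 0.5 h, Kdm4c by -2.05 and Kdm6a by -1.0 at 1 h, and Kdm4b by -1.25 at 2 h. Among the methyltransferases, Dot1l differed by 2.24 at 1 h, and Nsd3 by 2.27, Kmt2a by 1.51 and Setd1b by 1.43 at 2 h. Lower under LPS were Kmt5c by -4.60 and Ezh1 by -1.43 at 4 h, Setd7 by -1.90 at 2 h, Ezh2 by -1.89 at 1 h (adjusted p = 0.0104) and Nsd2 by -0.91 at 1 h (adjusted p = 0.00505).

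Among the acetyltransferases, Kat2b differed by 1.76 and Kat6b by -3.01 at 4 h, and Kat14 by -3.64, Ep300 by -1.27 and Crebbp by 0.28 (adjusted p = 0.0324) at 1 h. The difference for Crebbp turned to -0.20 with equal totals. Among the deacetylases, Hdac9 differed by 2.35 and Hdac4 by -1.39 at 4 h, Hdac1 by 2.23 and Hdac5 by -5.15 at 2 h, and Hdac3 by -1.16 at 0.5 h. The sirtuin Sirt1 differed by 1.79 at 2 h and Sirt3 by -3.24 at 4 h. Of the readers, Brd2 differed by 1.85 and Brd3 by -2.08 at 2 h.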

How the results depend on the processing

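The number of members called under IL-4 depended on the replicates, and the cause was not tested. So did the share of all tested genes over the IL-4 course. It ran from 15.6% to 47.1% (40.3% with all samples) when each replicate number was left out. Leaving out each replicate number in turn gave 9 to 42 members over the IL-4 course (33 with all samples), 4 to 27 after 0.5 h (17), 4 to 21 after 1 h (17), 4 to 24 after 2 h (15) and 5 to 27 after 4 h (18), with the highest counts without replicate 1. Leaving out replicates also gave 27 to 49 for 0.5 h of LPS (43) and 25 to 42 for LPS against IL-4 at 0.5 h (39). With replicates 2 and 3 averaged, the IL-4 course had 10 members (18.0% of all tested genes), and its times in order 6, 5, 6 and 6. With equal totals, 27 members changed at 0.5 h of IL-4, and the change of Crebbp at 1 h of LPS was -0.33.

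What samples of the same replicate number have in common was not stated, and the main test did not use the number. Deviations from the group mean were nevertheless alike in samples of the same number. Their correlations were 0.0897 to 0.713, with a median of 0.308 (106 of 108 above 0.1). Between different numbers they were -0.583 to 0.39, with a median of -0.309 (70 of 216 above 0.1). Of 27 samples, 19 correlated best with their own number. With the replicate block the IL-4 course had 47 members (53.3% of all tested genes), 2 h had 25 and 4 h had 28. The 1 h rises of Ezh2 under IL-4 (0.81, adjusted p = 5.58e-05) and of Crebbp under LPS (0.26, adjusted p = 0.0146) passed with it. So did the IL-4 rises of Dot1l at 2 h and Crebbp at 4 h, which also passed without replicate 1. The IL-4 falls of Brd3 and Hdac3 at 0.5 h passed without replicate 1 and with equal totals. Those of Ezh1 and Kmt2a at 0.5 h passed with equal totals.

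IL-4 calls for Ep300, Hdac5, Kdm6a, Nsd2 and Sirt1 and the LPS fall of Ezh2 were lost without replicate 2 or replicate 3, and the IL-4 call for Hdac4 without replicate 3. Sirt1 under IL-4 was also lost with no filter on low values. Depth is unknown, and rounded values below 10 carry little information.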

Other observations

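Replicate 1 was the lowest of the 3 in all 9 groups for Brd8, Brd9, Ezh2, Kdm4c, Kdm6a and Setd5, and the highest in all 9 for Kdm3a. Summed cell cycle markers of replicates 1, 2 and 3 were 978, 1863 and 1931 at 0.5 h of LPS and 158, 1316 and 1330 at 0.5 h of IL-4. Most of the LPS sums was Mki67, with 841, 1188 and 1097 against 72, 490 and 429 untreated. Top2a read 35, 430 and 463 against 38, 488 and 430 untreated, and Ccna2 11, 50 and 105 against 15, 128 and 141. The part of the cell cycle markers in the values of these members was not tested.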
